A study of Mus musculus with 4 samples.

Results

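The Schlafen genes of the mouse form a family of related proteins, and 7 of them, Slfn1, Slfn2, Slfn3, Slfn4, Slfn5, Slfn8 and Slfn9, were followed here in the blood of aging mice. They were found by gene symbol among the 17823 genes that had values in all 4 blood RNA-seq libraries, and all 7 had values. The family was chosen after Slfn4 had been seen among the largest falls with naringenin (Nar, a plant flavonoid), so every value of the Nar and control comparison is given for these 7 genes as a description. No p-value is printed for them, and calls made at a p-value cutoff are a description too. C57BL/6 mice, given as adult in the sample labels and as 12 months old in the methods of the study, received Nar by tail vein at 20 mg/kg for 30 days (Nar 1 and Nar 3) or the same volume of phosphate-buffered saline (Ctrl 1 and Ctrl 3). No transgene or mutation is named for either group, and the sex of the mice is not given in the labels. The methods of the study name females for the water maze test and do not say whether the blood came from them. Whether a library stands for 1 mouse or for a pool is not in the labels either. Messenger RNA of unsorted blood was sequenced, and the authors deposited FPKM, fragments per kilobase of transcript per 1000000 mapped fragments, rounded to 2 decimals.

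Schlafen proteins were named after the German word for sleeping, because forced expression of the first member held back the growth of T cells. Many members are induced by interferons, and the family is divided by size into short proteins (Slfn1 and Slfn2), intermediate proteins (Slfn3 and Slfn4) and long proteins with a helicase-like end (Slfn5, Slfn8 and Slfn9). Slfn2 is needed for quiescence of T cells and monocytes, and Slfn4 is known from myeloid cells, where interferon and bacterial products induce it.

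In the GRCm38 annotation of GENCODE the family lies on chromosome 11 in 1 cluster of 9 genes that spans 335.4 kb, from 82951349 to 83286726. Slfn5, Slfn9, Slfn8, the pseudogene Slfn10-ps, Slfn2, Slfn1, Slfn4, Slfn3 and Slfn14 follow each other in that order. The coding length was 1011 bases for Slfn1 and 1134 for Slfn2. It was 1806 bases for Slfn4 and 1920 for Slfn3. The long members had 2652 bases (Slfn5) and 2730 bases (Slfn8 and Slfn9). Slfn4, on the plus strand from 83175186 to 83190216, lies directly before Slfn3, which runs from 83191330 to 83215154. These neighbours were also the most alike in sequence, with 92.7% identical bases over 1785 aligned coding bases, and 14.3% of the 50-base runs of Slfn4 occurred unchanged in Slfn3. Slfn8 and Slfn9 were as close, with 92.7% identity over 2730 bases and 10.4% of 50-base runs shared. Reads from such stretches can be assigned to either gene, so Slfn3 beside Slfn4, and Slfn9 beside Slfn8, are uncertain. Slfn2 shared 6.36% of its 50-base runs with Slfn4, and Slfn1 shared 1.14%. The antisense gene Slfn5os overlaps Slfn5, and whether reads were assigned by strand is not given in the sources used here.

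The RefSeq promoters of all 7 genes (GRCm38.p6) were compared, because the genes differ in size class and in their values with Nar. The first 4 genes by number shared a run of 9 bases before the start site, which no member of the long class held. The windows below are on the strand of the gene, 5′ to 3′, with the shared run ACTTCCTGG in capitals.
Slfn1, chr11:83116716-83116785, plus strand: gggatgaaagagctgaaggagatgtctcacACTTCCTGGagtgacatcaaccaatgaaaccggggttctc
Slfn2, chr11:83065027-83065096, plus strand: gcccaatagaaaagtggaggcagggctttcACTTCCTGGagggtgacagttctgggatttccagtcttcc
Slfn3, chr11:83191258-83191327, plus strand: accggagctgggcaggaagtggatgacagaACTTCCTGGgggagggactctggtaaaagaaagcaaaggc
Slfn4, chr11:83175083-83175152, plus strand: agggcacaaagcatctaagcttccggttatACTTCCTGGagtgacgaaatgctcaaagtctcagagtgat
The run began 74 bases before the start in Slfn1, 55 in Slfn2, 42 in Slfn3 and 73 in Slfn4. In Slfn1 and Slfn4 it went on to 15 identical bases. On either strand it occurred in 277 of 32851 promoters of the same length (0.843%). It was found by comparing these promoters after the values were known, so its presence in all 4 of them is how it was chosen.

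The long members held another motif, the core of the interferon-stimulated response element (ISRE), written as GAAA and GAAA with any 2 bases between them, which is bound by interferon regulatory factors. It is in capitals below, on the other strand in Slfn8 and Slfn9.
Slfn5, chr11:82951917-82951987, plus strand: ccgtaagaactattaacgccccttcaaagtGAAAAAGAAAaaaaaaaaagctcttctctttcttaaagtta
Slfn8, chr11:83020818-83020888, minus strand: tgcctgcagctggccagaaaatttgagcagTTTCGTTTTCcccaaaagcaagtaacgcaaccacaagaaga
Slfn9, chr11:82991835-82991905, minus strand: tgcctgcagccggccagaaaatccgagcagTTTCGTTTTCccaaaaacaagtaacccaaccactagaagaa
This core occurred in 3 of the 7 members and in 1131 of 32851 promoters (3.44%). In GENCODE, Slfn5 starts at 82951349, so its RefSeq window printed here lies inside the GENCODE gene. Of the bases in that window, 3 fall in a GENCODE exon. Searched on both strands, the STAT motif GAS, TTCNNNGAA (8.3% of promoters), the PU.1 core GAGGAAGT (3.2%) and the NF-kB motif of GGG and TTTCC with any 2 bases between them (1.63%) occurred in none of the 7 promoters. On the other strand, the run shared by Slfn1, Slfn2, Slfn3 and Slfn4 holds the PU.1 core except for its first base. A match of letters is not a bound site, and a missing match says only that these letters are not in these 300 bases.

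In control blood 3 members stood well above the rest. Slfn4 had 14.37 FPKM in Ctrl 1 and 7.81 in Ctrl 3, a mean of 11.1 ± 4.64 (SD, n = 2). Slfn2 had 11.02 and 8.68 FPKM, a mean of 9.85 ± 1.65 (SD, n = 2). Slfn1, which restrains the growth of thymocytes when overexpressed, had 8.36 and 5.1 FPKM, a mean of 6.73 ± 2.31 (SD, n = 2). Within each control library Slfn4 and Slfn2 were both above Slfn1, while the order of Slfn4 and Slfn2 changed between the libraries. The long members Slfn5 and Slfn8 came next, at 1.1 ± 0.212 and 0.9 ± 0.184 FPKM (SD, n = 2), and overlapped each other. Slfn9 and Slfn3 were lowest, with 0.245 ± 0.0919 and 0.225 ± 0.0354 FPKM (SD, n = 2), again overlapping. Slfn3 has been studied mainly in the lining of the gut.

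With Nar, Slfn4 was listed at 0.29 FPKM in Nar 1 and in Nar 3, so the member with the highest control mean had dropped below Slfn1 and Slfn2. Slfn2 had 1.05 FPKM in Nar 1 and 3.12 in Nar 3, a mean of 2.09 ± 1.46 (SD, n = 2). Slfn1 had 0.77 and 1.43 FPKM, a mean of 1.1 ± 0.467 (SD, n = 2). For these 3 genes the groups did not overlap, the Nar values being the lower. For Slfn1 and Slfn2 Nar 3 was the higher of the Nar libraries, while Slfn4 was level between them.

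The long members were low in all libraries and lower with Nar. Slfn5, a nuclear protein of the interferon response, had 0.95 and 1.25 FPKM in controls and 0.37 and 0.08 with Nar. Slfn8 had 0.77 and 1.03 FPKM in controls and 0.31 and 0.18 with Nar. Here Nar 3 was the lower of the Nar libraries, the reverse of Slfn1 and Slfn2. Slfn9 had 0.31 and 0.18 FPKM in controls and 0.11 and 0.05 with Nar. Slfn3 was the exception, with 0.25 and 0.2 FPKM in controls and 0.25 and 0.07 with Nar, so its groups overlapped. So 6 of the 7 members had both Nar libraries below both control libraries. The 5 members that reached the mean of 0.5 FPKM set for testing all did, and so did 78.3% of the 5339 genes tested. The plot of FPKM by gene shows these 28 values.

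**Figure D1:**
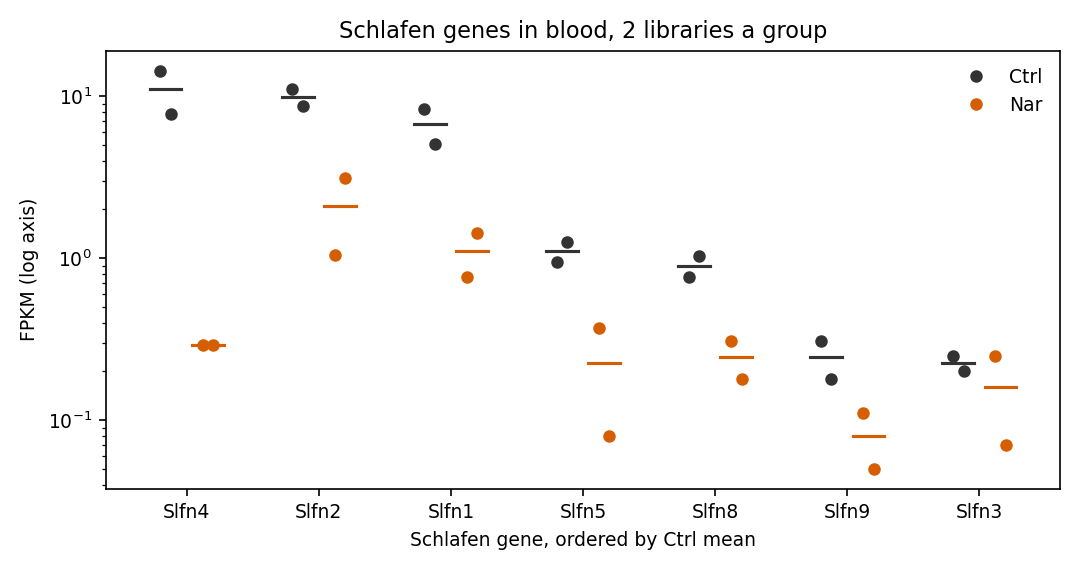
FPKM on a log axis for the 7 Schlafen genes, ordered by control mean, with 1 point per library (2 Ctrl, 2 Nar) and a bar at the mean of each group. Slfn4 has the highest control mean, 11.1 FPKM, and 0.29 FPKM in both Nar libraries, while the Slfn3 points of the groups overlap.

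Read numbers were not among the values used here, but low FPKM values of genes with 1 annotated transcript clustered at whole multiples, which gave a rough depth of 21250000 to 27500000 fragments per library. At that depth, and with the shortest and longest annotated transcripts of Slfn4, 0.29 FPKM stood for about 12 to 30 fragments, and the control values for about 304 to 1564. For Slfn3 in Nar 3, 0.07 FPKM stood for about 3 to 4 fragments, and for Slfn5 in Nar 3, 0.08 FPKM for about 2 to 13. Slfn8 in Nar 3, at 0.18 FPKM, stood for about 5 to 19 fragments. The values of Slfn3 and Slfn9 in all libraries, and those of Slfn4, Slfn5 and Slfn8 with Nar, therefore rest on few fragments, and in Nar 1 Slfn1 and Slfn2 had only about 32 to 37 and 39 to 45.

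On log2(FPKM + 0.1), a scale that understates the change of low genes, the log2 fold change with Nar was -4.78 for Slfn4 (standard error 0.417). It was -2.52 for Slfn1 (standard error 0.463) and -2.36 for Slfn2 (standard error 0.552). The long members had -2.03 for Slfn5 (standard error 0.521) and -1.55 for Slfn8 (standard error 0.431). As ratios of the mean FPKM, controls were 38.2 times as high for Slfn4, 6.12 times for Slfn1, 4.72 times for Slfn2, 4.89 times for Slfn5 and 3.67 times for Slfn8. Slfn2 and Slfn5 depended on the Nar library, with log2 fold changes of -1.62 and -2.73 without Nar 1 and of -3.10 and -1.34 without Nar 3. Slfn9 and Slfn3 fell short of the mean of 0.5 FPKM set for testing, and their log2 fold changes were -0.93 and -0.41. The median of all 5339 genes tested was -1.07. The place of Slfn9 beside that median turned on the pseudocount, since with 0.01 in place of 0.1 Slfn9 had -1.54 and the median was -1.17. It turned on scaling too, since with haemoglobin genes removed Slfn9 had -1.05 and the median was -0.61. Slfn4 ranked 3 from the lowest of all genes tested, and Slfn1 ranked 174, Slfn2 223, Slfn5 362 and Slfn8 914.

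All 5 members that could be tested were called lower by limma, a test that pools the spread between replicates over all genes, at an adjusted p under 0.05 and more than 2-fold. So were 39.3% of the genes tested, and since the family was chosen on this comparison nothing is read from the 5. Slfn4, Slfn5 and Slfn8 also passed the minimum of 0.5 FPKM through the controls alone. The calls depended on the control libraries. Without Ctrl 1 or without Ctrl 3, limma called 0 of 5339 genes, with 2682 and 2133 genes at an unadjusted p under 0.05, and so 0 members. Without Nar 1 the members called were Slfn4 and Slfn5, and without Nar 3 they were Slfn1, Slfn2 and Slfn4. Without the filter on low values it was 0 of 16382 genes, with 4978 at an unadjusted p under 0.05.

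Most genes were lower with Nar. Haemoglobin genes took 92.6% to 96.4% of the summed FPKM, more in both Nar libraries than in both controls, and with these genes removed the median of all tested genes was -0.61. Scaling by the median of the ratios between libraries, which sets the typical gene level and moved the median of all tested genes from -1.07 to -0.0016, left a log2 fold change of -3.74 for Slfn4. It left -1.40 for Slfn1, -1.22 for Slfn2, -1.14 for Slfn5, -0.60 for Slfn8 and -0.29 for Slfn9, and turned Slfn3 to 0.30. On that scale limma called Slfn4 and no other member, and with haemoglobin genes removed it was again Slfn4 alone. Slfn4 was singled out for its fall in these same libraries, so these calls are a description too. In bulk blood, fewer cells of a type and less RNA per cell cannot be told apart.

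**Figure D2:**
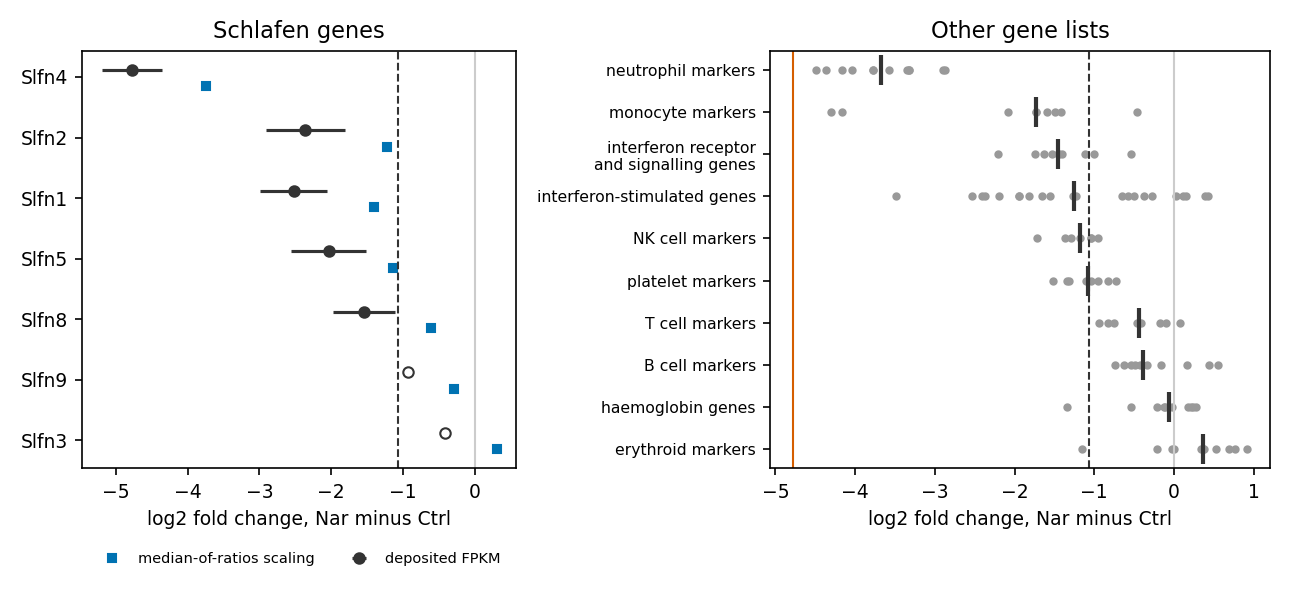
Left, log2 fold change (Nar minus Ctrl) of the 7 Schlafen genes from the deposited FPKM (circles, bars are limma standard errors, open where not tested) and after median-of-ratios scaling (squares). Right, the same quantity for the tested genes of 10 other lists (dots) with each list's median (tick); dashed lines mark the median of all tested genes, -1.07, and the orange line on the right marks Slfn4 at -4.78, to the left of every dot.

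Slfn4 was set against its relatives within each library, where scaling cancels. The ratio of Slfn4 to Slfn2 was 1.30 in Ctrl 1 and 0.90 in Ctrl 3, and 0.276 in Nar 1 and 0.0929 in Nar 3. The ratio of Slfn4 to Slfn1 was 1.72 and 1.53 in controls and 0.377 and 0.203 with Nar. Slfn4 thus went from about level with Slfn2, and above Slfn1, to a fraction of either in both Nar libraries. Against Slfn8 it was 18.7 and 7.58 times as high in controls and 0.935 and 1.61 times with Nar. Against Slfn5 it was 15.1 and 6.25 times as high in controls and 0.784 and 3.62 times with Nar. The ratio of Slfn4 to Slfn3, its near copy, was 57.5 and 39.1 in controls and 1.16 and 4.14 with Nar. To Slfn9 it was 46.4 and 43.4 in controls and 2.64 and 5.80 with Nar. For all 6 partners the ratio was lower in both Nar libraries than in both controls. The log2 fold change of Slfn4 was 2.99 below the median of the other 6 members. Since Slfn4 was singled out for its fall, the lower ratios and this gap were largely built in and are a description.

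The short members were compared with each other in the same way. The ratio of Slfn1 to Slfn2 was 0.759 and 0.588 in controls and 0.733 and 0.458 with Nar, so the groups overlapped. As a share of the summed FPKM of the 7 genes, Slfn4 made up 39.9% and 32.2% in controls, 9.21% in Nar 1 and 5.56% in Nar 3. Slfn2 made up 30.6% and 35.8% in controls, 33.3% in Nar 1 and 59.8% in Nar 3. Slfn1 held 21.0% to 27.4% in all 4 libraries. The share of Slfn4 was lower in both Nar libraries, while what took its place differed between them. In Nar 3 it was mainly Slfn2. In Nar 1 the long members and Slfn3 had larger shares than in the other libraries, with 11.7% for Slfn5, 9.84% for Slfn8, 7.94% for Slfn3 and 3.49% for Slfn9. The family summed to 36.03 and 24.25 FPKM in controls and to 3.15 and 5.22 FPKM with Nar.

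**Figure D3:**
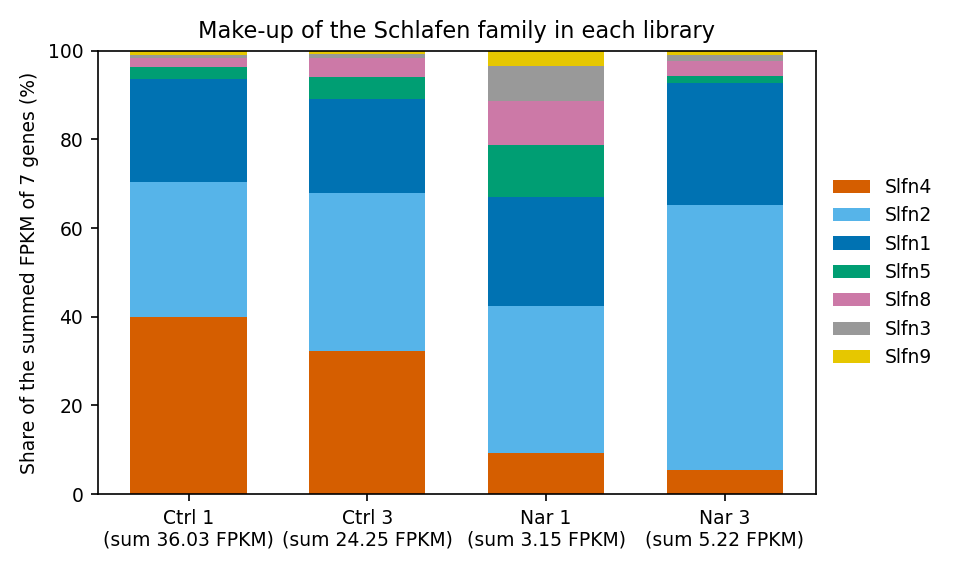
Share of each Schlafen gene in the summed FPKM of the 7 genes (percent), stacked for each of the 4 libraries, with the sum printed under each bar. The Slfn4 share is 39.9% and 32.2% in controls and 9.21% and 5.56% with Nar, and the Slfn2 share is largest in Nar 3 at 59.8%.

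The place of a gene among the others of its library also does not depend on scaling. Of the genes tested, 89.9% had a lower FPKM than Slfn4 in Ctrl 1 and 79.8% in Ctrl 3, but 7.5% in Nar 1 and 11.6% in Nar 3. Slfn2 lay above 87.4% and 81.2% of the genes in controls, above 55% in Nar 1 and above 81.7% in Nar 3, so that in Nar 3 it had kept its place. Slfn1 lay above 84.8% and 73.2% in controls and above 44.5% and 68.3% with Nar. Slfn5 lay above 18.3% and 32.8% in controls and above 14% and 0.6% with Nar, and Slfn8 above 10.1% and 23.9% in controls and above 8.8% and 2.9% with Nar. By this measure the Nar and control groups of Slfn2 overlapped, and those of Slfn1 did not. The share of all tested genes without overlap by this measure was not worked out. Slfn4, Slfn5 and Slfn8 had Nar means of 0.29, 0.225 and 0.245 FPKM and passed the minimum of 0.5 FPKM through the controls, so a low place with Nar was built in for them and nothing is read from it.

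**Figure D4:**
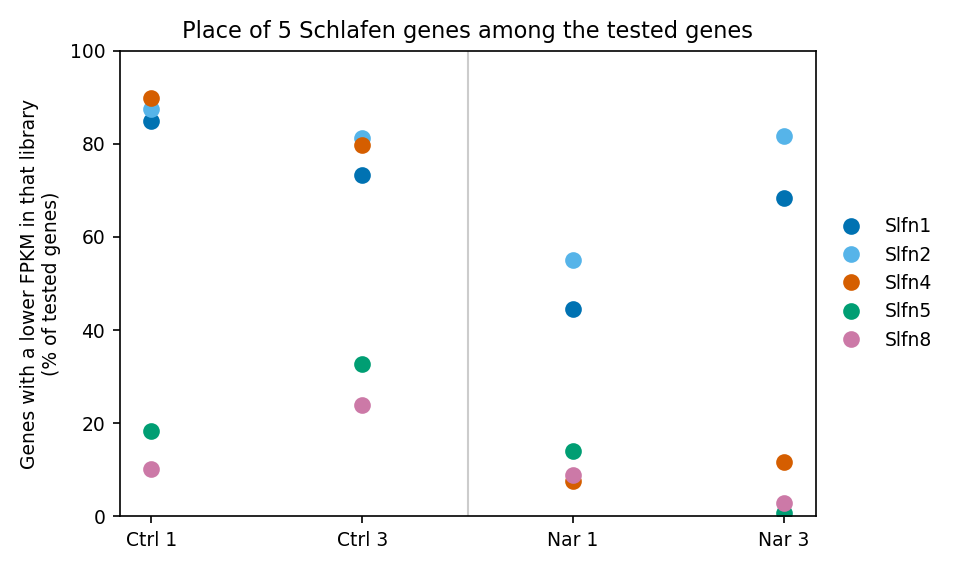
Percentage of the tested genes with a lower FPKM than each of 5 Schlafen genes, 1 point per gene in each of the 4 libraries. Slfn4 lies at 89.9% and 79.8% in controls and at 7.5% and 11.6% with Nar, while Slfn2 lies at 81.7% in Nar 3, between its control values.

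The genes whose pattern over the 4 libraries lay nearest to that of Slfn4, by Euclidean distance of centred log2(FPKM + 0.1), were Ngp (distance 0.676), Cd14 (0.778), Fos (0.927), G0s2 (0.935) and Asprv1 (0.943). Ngp, a neutrophil granule gene, had 82.49 and 73.67 FPKM in controls and 2.83 and 4.03 with Nar. Cd14, the co-receptor for bacterial lipopolysaccharide, had 14.71 and 11.9 FPKM in controls and 0.44 and 0.75 with Nar. Those nearest to Slfn2 were Scrg1 (distance 0.145), Alox5 (0.191), Flot2 (0.240), Cpne2 (0.352) and Ckap4 (0.405), which like Slfn2 were higher in Nar 3 than in Nar 1. Alox5, the 5-lipoxygenase of leukotriene synthesis, had 2.09 and 1.68 FPKM in controls and 0.1 and 0.47 with Nar. Among the 5 tested members, Slfn1 and Slfn2 were the nearest pair, at a distance of 0.563, and Slfn5 and Slfn8 followed at 0.763. Slfn4 lay at 2.33 or more from every other member. These distances rest on 4 libraries.

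Markers of neutrophils, and part of those of monocytes, moved with the comparison. All 12 neutrophil markers were called lower, beside 39.3% of all genes tested, with log2 fold changes from -4.49 to -2.87 and a median of -3.67, and their summed FPKM was 1442 to 1746 in controls and 106 to 165 with Nar. Among them S100a9, an alarmin subunit, had 724.3 and 553.6 FPKM in controls and 41.53 and 67.46 with Nar. S100a8 had a log2 fold change of -3.35 and Retnlg one of -3.77. Per 1000 FPKM of the summed neutrophil markers, Slfn4 had 8.23 and 5.42 FPKM in controls and 2.74 and 1.76 with Nar. Slfn1 went the other way, with 4.79 and 3.54 in controls and 7.28 and 8.67 with Nar, and so did Slfn2, with 6.31 and 6.02 in controls and 9.93 and 18.9 with Nar. That sum is carried by its most abundant genes, so the markers were also taken singly, a step added after seeing the data. The ratio of Slfn4 was lower in both Nar libraries than in both controls against 10 of the 12 markers. Slfn4 was singled out for its fall, so lower ratios were largely built in and nothing is read from that count. Against the granule genes Camp and Ltf the groups overlapped, with 1.5 and 0.643 in controls and 0.483 and 0.967 with Nar for Camp, and with 1.5 and 0.717 in controls and 0.483 and 0.784 with Nar for Ltf. The ratio of Slfn1 was higher in both Nar libraries against all 12 markers, and that of Slfn2 against 10, with 2 overlapping.

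Of 9 tested monocyte markers 6 were called lower, again beside 39.3% of all genes tested, with a median of -1.73, and their summed FPKM was 403 to 481 in controls and 107 to 164 with Nar. Lyz2, the lysozyme of myeloid cells, had a log2 fold change of -1.59, F13a1 one of -1.49 that was not called, and Ly6c2, the marker of classical monocytes, one of -4.17. Per 1000 FPKM of these markers Slfn4 had 35.7 and 16.2 FPKM in controls and 1.76 and 2.72 with Nar, while the groups of Slfn1 (20.8 and 10.6, against 4.68 and 13.4) and of Slfn2 (27.4 and 18.0, against 6.38 and 29.2) overlapped. Taken singly, the ratio of Slfn4 was lower in both Nar libraries against 8 of the 10 monocyte markers. Here too the choice of Slfn4 for its fall largely built this in, and nothing is read from the count. The groups overlapped against Ly6c2, with 0.528 and 0.253 in controls and 0.107 and 0.349 with Nar, and against Cd14, with 0.977 and 0.656 in controls and 0.659 and 0.387 with Nar. None of the defining markers of either list was at 0 in all libraries. After median-of-ratios scaling the medians were -2.50 for the neutrophil and -0.57 for the monocyte list. The part of neutrophil and monocyte numbers in the fall of Slfn4 was not tested.

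Of the lymphocyte, platelet and red cell markers 1 was called. None of 9 tested T cell markers was called (median -0.44, summed FPKM 11.5 to 17.9 in controls and 10.3 to 11.3 with Nar), and Cd2, Tcf7 and Lck had -0.10, -0.41 and -0.94. None of 10 B cell markers was called (median -0.38, summed FPKM 143 to 148 and 96.0 to 98.7), and Cd74, Cd79a and Cd79b had -0.74, -0.34 and 0.16. Of 7 NK cell markers 1 was called lower, Gzma at -1.72, with a median of -1.18 and a summed FPKM of 19.4 to 22.8 in controls and 5.23 to 10.7 with Nar; Nkg7 and Prf1 had -0.95 and -1.04. None of 8 platelet markers was called (median -1.07), and Pf4, Gp9 and Itga2b had -1.51, -1.32 and -1.11. Their summed FPKM was 733 in Ctrl 1, 2284 in Ctrl 3 and 477 to 627 with Nar, and their median was -1.92 without Ctrl 1 and -0.41 without Ctrl 3. None of 12 erythroid markers was called (median 0.37, summed FPKM 8991 to 10953 in controls and 10133 to 11003 with Nar), and Alas2 and Bpgm had 0.00 and 0.34. The erythroid median was -0.03 without Ctrl 1 and 0.89 without Ctrl 3, and the T cell median -0.03 and -0.86. The NK cell median was -0.71 without Ctrl 1, -1.50 without Ctrl 3, -1.695 without Nar 1 and -0.69 without Nar 3. Of 10 haemoglobin genes none was called at more than 2-fold (median -0.07), and Hbb-bs, Hba-a2 and Hba-a1 had -0.12, 0.21 and 0.28. After median-of-ratios scaling the medians were 0.56 for the T cell, 0.72 for the B cell, -0.23 for the NK cell, 0.10 for the platelet, 1.53 for the erythroid and 1.10 for the haemoglobin list, so the T cell, B cell, platelet and haemoglobin medians changed sign. These red and white cell genes are those of blood, as labelled.

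Many Schlafen genes are interferon-stimulated, and of 22 tested interferon-stimulated genes outside the family 12 were called lower and none higher, where 39.3% of all genes tested were called lower. Their median log2 fold change was -1.25, beside -1.07 for all tested genes, and they ran from -3.49 to 0.43. The 3 highest in controls differed among themselves. Isg20, an exonuclease, had 363.2 and 537.77 FPKM in controls and 586.87 and 603.36 with Nar. Rsad2, the antiviral protein viperin, had 92.97 and 158.37 FPKM in controls and 168.89 and 150.31 with Nar. Ifitm3, which blocks virus entry, had 60.89 and 138.05 FPKM in controls and 24.99 and 26.72 with Nar, a log2 fold change of -1.82 (limma adjusted p = 0.0353). The first of these had a log2 fold change of 0.43 and the second one of 0.39, neither called (limma adjusted p = 0.371 and 0.495). Of the 10 interferon receptor and signalling genes 7 were called lower, with a median of -1.45. After median-of-ratios scaling the medians of these lists were -0.20 and -0.38. Jak1 had -1.01 and Jak2 -1.40, neither called, and Ifngr1, a chain of the interferon-gamma receptor, had -1.74 (limma adjusted p = 0.023).

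The rest of the Schlafen cluster was described in the same way. Slfn14, a ribosome-bound nuclease of platelets and red cells, had 1.05 and 1.16 FPKM in controls and 1.3 and 0.42 with Nar, so its groups overlapped, and its log2 fold change was -0.50 with an adjusted p of 0.372 in limma. Slfn10-ps had 0.27 and 0.34 FPKM in controls and 0.1 and 0.09 with Nar, below the minimum for testing. Slfnl1, on another chromosome, was blank in all libraries. The nearest tested genes outside the cluster were not called. Rffl, 80.1 kb before it, had a log2 fold change of -0.32, and Ap2b1, 12 kb after it, one of -0.45, with limma adjusted p = 0.473 and 0.328. Farther off, Psmd11 had -0.88, Myo1d 0.08, Taf15 -0.79 and the chemokine gene Ccl5 -1.08, with limma adjusted p = 0.111, 0.861, 0.0937 and 0.097.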

How the data were processed

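Blood RNA-seq libraries, 2 Nar and 2 control, were analysed, grouped by the sample titles. Deposited values are FPKM for each gene, to 2 decimals. The methods name bowtie-2, while the submitters' processing notes name TopHat2, Cufflinks and GRCm38, without versions. Each column was matched to 1 library and 0 were left over. Of 23136 genes listed, 5313 were blank. The rough depth in the report came from the spacing of low FPKM values and was chosen after seeing the data.

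The 5339 genes whose mean reached 0.5 FPKM were compared as log2(FPKM + 0.1) in R 4.3.3 with limma 3.58.1 (lmFit, eBayes with trend) and Benjamini-Hochberg adjustment, without a replicate block. The authors' DEGseq needs read numbers. With 2 libraries against 2, an exact two-sided permutation test cannot go below 0.33. Nothing says whether libraries are separate animals, so p-values measure the spread between these libraries. The limma steps were checked on simulated data.

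The members and lists were chosen with earlier results of these data known. Named genes were the members, the other Schlafen genes, the 3 highest in controls of each list (1 erythroid gene is not reported here), the 5 nearest to Slfn4 and to Slfn2, and 3 neighbours on each side of the cluster. Protein sequences were not used here, so coding sequences of GENCODE M21 were aligned in place of the planned proteins (Biopython 1.88); promoters are RefSeq's, 250 bases before to 50 after the start, and all 7 members matched. Alternatives were other pseudocounts, filters, scalings, a fit without trend, the replicate block and each library left out. Plots were drawn with matplotlib 3.10.9.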

Additional observations from a re-analysis of the deposited data

How the results depend on the processing

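The gap between Slfn4 and the median of the other members kept its sign under every scaling and pseudocount tried, from -3.00 to -2.48, and from -3.61 to -2.39 with 1 library left out. Genes called over all tested fell from 2106 to 670 with a pseudocount of 1, 119 with haemoglobin genes removed, 42 with median-of-ratios scaling (32 lower, 10 higher), 117 of 1083 where the mean had to reach 5 FPKM and 0 without a filter (4978 of 16382 at an unadjusted limma p under 0.05), and ran from 0 to 258 with 1 library left out. Members called lower went from 5 to 3, 1 and 1 under the first 3 of these settings and to 0 without a filter, and ran from 0 to 3 with 1 library left out. With a mean of 5 FPKM only 2 members were tested, Slfn2 and Slfn4, and both were called. Slfn3 turned to 0.30 with median-of-ratios scaling and ran from -0.93 to 0.11 with 1 library left out, the latter without Nar 3. The interferon-stimulated median moved to -0.63 with a pseudocount of 1, -0.82 without haemoglobin genes and -0.20 with median-of-ratios scaling. The neutrophil median moved to -3.18, -3.12 and -2.50 there, and ran from -3.90 to -3.31 with 1 library left out. The platelet median turned to 0.10 with median-of-ratios scaling. Slfn4 lost its call without a filter, without Ctrl 1 and without Ctrl 3, and Slfn5 and Slfn8 fell under 2-fold with a pseudocount of 1.

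The libraries share the replicate numbers 1 and 3 only in their titles, and same-numbered libraries deviated oppositely (correlation -0.153 across genes). With the replicate block 1813 genes were called, and with the pairing crossed, chosen after seeing the data, 2861; the members called lower stayed 5 under both. With a library left out, the lone library of its group was assumed to vary like the other group. The cause of these changes was not tested, apart from fewer genes or libraries where these were left out. Few fragments stood behind Slfn3 and Slfn9, behind Slfn4, Slfn5 and Slfn8 with Nar, and behind Slfn1 and Slfn2 in Nar 1.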
